A study of Mus musculus with 17 samples.

Results

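Gas5 and Snhg1 are noncoding host genes of small nucleolar RNAs (snoRNAs), and their transcripts were followed in the left ventricle (LV) and right ventricle (RV) of the newborn mouse heart. Their rows in the deposited tables were found by position, as all rows overlapping chr1:162960000-162973000 for Gas5 or chr19:8796000-8802000 for Snhg1, in the coordinates of the files, which are taken to be mm9. These windows held 23 of the 23940 rows, 19 for Gas5 and 4 for Snhg1. The mice were C57Bl/6 males, the tissue was ventricle, and the ages were day 0 (P0), day 3 (P3) and day 7 (P7) after birth, with no genetic change or drug named in the labels. The 17 libraries fall into LV P0, LV P3, LV P7, RV P0 and RV P3 with 3 libraries each and RV P7 with 2. The labels call the replicates biological and do not say whether LV and RV libraries came from the same animals or whether animals were pooled. The tables list noncoding features without gene names, and the heart identity of the tissue was not checked against marker genes here.

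A snoRNA host gene is transcribed and spliced, and the snoRNAs are trimmed out of its introns. Box C/D snoRNAs, the class that both genes carry, guide methylation of ribosomal RNA, while the spliced exons make no large protein and are usually short-lived. Gas5 was named for its accumulation in growth-arrested cells, and both genes start transcription at a pyrimidine-rich site of the kind found in genes of the translation machinery.

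All 19 Gas5 rows carried the same position, chr1:162964553-162968670, whose 4118 bases equal the length between the annotated bounds of Gas5. In the Snhg1 window, 3 rows shared the position chr19:8797897-8800935, which spans 3039 bases against 2969 between the annotated bounds of Snhg1. The other row there, NONMMUT033787 at chr19:8795898-8797705, ends 191 bases before the Snhg1 position and is a neighbour of Snhg1. Position is therefore the extent of the whole gene, and the rows are isoforms of it. With the span taken as the length, 64.1% to 67.6% of low values per library lay within 0.02 of a whole multiple of the value of 0.5 fragment, and the span overstates the length of rows with introns. The step of each library was used to find the length of each row. By length, all 19 Gas5 rows matched an annotated transcript (GENCODE release M21, with 25 Gas5 transcripts), and 2 of the 3 Snhg1 rows did (of 18 Snhg1 transcripts). For NONMMUT003420, named Gas5-207, a further transcript also lay within the limit, at a deviation of 0.0122 against 0.000893. The match of NONMMUT003412 rests on the 1 library in which it was above 0, and NONMMUT033788 matched no Snhg1 transcript. Rows are named here by the matched transcript.

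By these matches, most rows were transcripts that keep introns: 15 of the 19 Gas5 rows and both matched Snhg1 rows are annotated as retained intron, and the other 4 Gas5 rows, Gas5-203, Gas5-209, Gas5-210 and Gas5-224, as lincRNA. The annotation places 10 snoRNA gene entries inside Gas5 and 8 inside Snhg1. Retained-intron rows held 87.4% of the fragments assigned to Gas5. Gas5-223, Gas5-222 and Gas5-202 together held 65.8% of them. These rows have 157, 115 and 99 bases that no other matched row contains. How fragments shared by isoforms were divided among rows is not given in the sources used here, so row values of a gene depend on each other.

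The stretches that set apart the 5 rows with most fragments are shown because no other matched row of the gene contains these bases. Annotated transcripts without a matched row were not compared, so the bases need not be particular to the isoform named. The stretches were read from the GENCODE M21 transcripts, 5′ to 3′, with capitals for bases of an annotated snoRNA gene. Positions count from 1 at the transcript's first base. For Gas5 they are bases 303 to 459 of Gas5-223 with the whole of Snord80, bases 662 to 776 of Gas5-222 with the edge of Gm23212, and bases 409 to 507 of Gas5-202 with part of Snord47.
Gas5-223: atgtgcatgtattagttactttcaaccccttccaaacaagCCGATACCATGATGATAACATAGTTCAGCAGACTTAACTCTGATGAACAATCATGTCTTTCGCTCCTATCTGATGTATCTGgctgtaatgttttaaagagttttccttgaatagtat
Gas5-222: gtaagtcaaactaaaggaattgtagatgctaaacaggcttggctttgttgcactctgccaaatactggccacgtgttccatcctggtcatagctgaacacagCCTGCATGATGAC
Gas5-202: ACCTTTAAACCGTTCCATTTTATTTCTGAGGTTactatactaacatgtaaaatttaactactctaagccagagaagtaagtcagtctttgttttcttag

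For Snhg1 they are bases 704 to 916 of Snhg1-215 with the snoRNA gene Gm25894, bases 1810 to 2067 of the same transcript with Gm23246, its bases 2389 to 2524 with no snoRNA gene, and bases 1558 to 1785 of Snhg1-203 with Gm22680.
Snhg1-215 with Gm25894: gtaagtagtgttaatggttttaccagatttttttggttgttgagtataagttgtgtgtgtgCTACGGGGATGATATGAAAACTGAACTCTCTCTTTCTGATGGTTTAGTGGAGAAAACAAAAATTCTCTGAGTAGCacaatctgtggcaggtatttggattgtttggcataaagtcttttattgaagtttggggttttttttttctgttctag
Snhg1-215 with Gm23246: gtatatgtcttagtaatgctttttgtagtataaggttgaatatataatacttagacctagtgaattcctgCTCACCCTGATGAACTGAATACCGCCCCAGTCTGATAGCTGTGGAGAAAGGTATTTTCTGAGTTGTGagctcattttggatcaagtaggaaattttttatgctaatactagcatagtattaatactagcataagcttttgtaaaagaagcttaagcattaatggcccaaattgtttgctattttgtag
Snhg1-215 without a snoRNA gene: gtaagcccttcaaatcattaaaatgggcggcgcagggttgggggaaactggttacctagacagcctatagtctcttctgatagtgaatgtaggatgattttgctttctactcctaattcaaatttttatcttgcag
Snhg1-203 with Gm22680: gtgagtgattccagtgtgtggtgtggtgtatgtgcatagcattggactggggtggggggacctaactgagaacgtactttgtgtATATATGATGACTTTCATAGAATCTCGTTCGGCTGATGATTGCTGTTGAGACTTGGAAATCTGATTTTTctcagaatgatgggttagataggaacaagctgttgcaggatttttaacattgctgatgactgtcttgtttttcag

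Of these 7 stretches, the 4 of Snhg1 open with GT and end with AG, the ends of an intron, so each is an intron that this row keeps and the other matched row does not. A whole snoRNA gene lay in 4 of the 7 stretches. On the strand shown, its bases held CTGA, the letters of box D, in 4 of 4 and TGATGA, the core of box C, in 3 of 4. A match of letters is a description and does not show that a snoRNA was made.

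**Figure D1:**
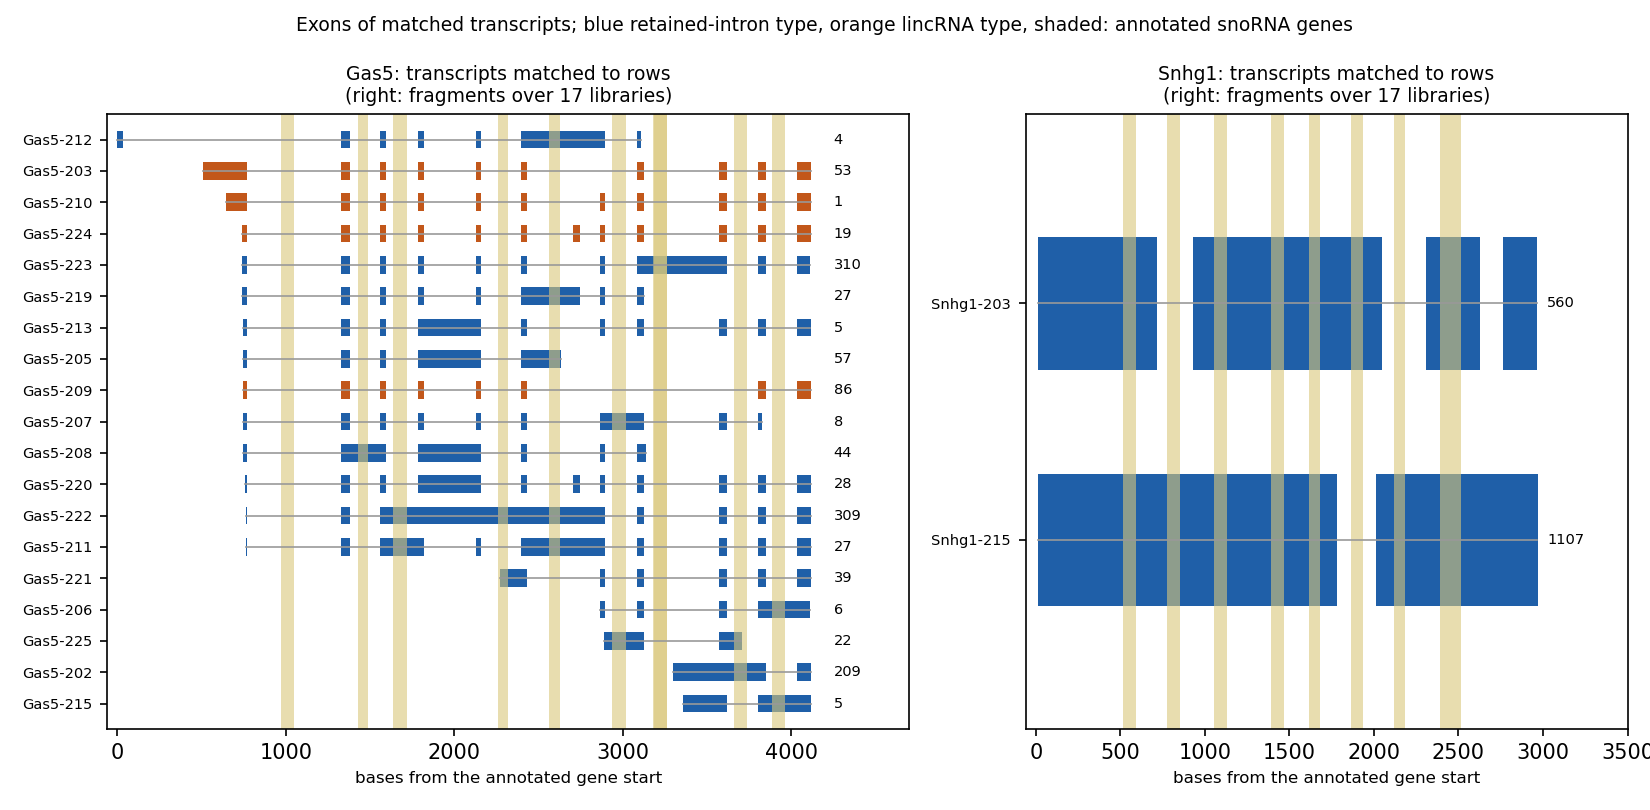
Exons (blocks) of the annotated transcripts matched to Gas5 rows (left) and Snhg1 rows (right), in bases from the annotated gene start, with snoRNA genes shaded and fragments over the 17 libraries at the right of each transcript. Snhg1-215 is drawn with 2 exons and Snhg1-203 with 4, and Gas5-223 and Gas5-222 have the most fragments of the Gas5 transcripts, 310 and 309.

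The start sites of the host genes are shown because of the pyrimidine-rich sites both genes are known for. The RefSeq promoter table (GRCm38.p6) holds both genes. The 40 bases before and 30 bases from the start are printed 5′ to 3′ on the + strand, with the run of C and T from the start in capitals. They are chr1:161035126-161035195 for Gas5 and chr19:8723447-8723516 for Snhg1, coordinates of GRCm38.p6 and not of the files.
Gas5 start: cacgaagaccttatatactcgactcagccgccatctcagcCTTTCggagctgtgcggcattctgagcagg
Snhg1 start: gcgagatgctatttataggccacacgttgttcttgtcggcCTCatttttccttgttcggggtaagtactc

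The run was 5 bases long at Gas5 and 3 at Snhg1, and TATA stood in the 40 bases before the start of both. Among 32851 promoters of the table, read on the gene's strand, 7.63% held TATA in those 40 bases, 5.81% began with C and 2 further bases that are C or T, and 0.384% had both. The pattern counted is as long as the run at Snhg1, and both starts shown meet it. The shares are therefore a description and no test of these genes. RefSeq lists an upstream start of Gas5 too, at which the run was 0 bases long and TATA was not among the letters.

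Depth and filters bear on all values. The value steps correspond to 13.8 to 20.5 M fragments per library. Gas5 rows together drew 27.0 fragments in the lowest library, 74.5 in the median and 120 in the highest, and the 3 Snhg1 rows at the Snhg1 position 35.5, 103 and 168, so single rows rest on few fragments. Of the 23 rows, 19 passed the filter of at least 0.1 FPKM (fragments per kilobase, scaled to depth) in at least 2 libraries, 16 of Gas5 and 3 of Snhg1. Gas5-212, Gas5-210, Gas5-213 and the neighbour NONMMUT033787 did not pass; their highest values were 0.116, 0.101, 0.139 and 0.133 FPKM. P7 libraries had 40.8% to 48.7% of all rows at 0, against 37.8% to 43.4% at P0. RV P3 replicate 2 had the lowest depth and the most rows at 0, 49.2%. RV P7 replicate 1 had the lowest median over the rows that passed the filter, -2.19 as log2(FPKM + 0.1), with 48.0% of all rows at 0.

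Snhg1 fell from P0 to P7. The leading row, Snhg1-215 (NONMMUT033790), stood at 1.73, 2.08 and 1.96 FPKM in the 3 LV P0 libraries, 1.82, 1.22 and 1.41 in LV P3 and 0.907, 0.960 and 0.745 in LV P7. In the RV it stood at 1.42, 1.79 and 1.81 FPKM at P0, 1.59, 0.651 and 1.21 at P3 and 0.527 and 0.903 at P7. All 5 P7 libraries lay below all 6 P0 libraries, and P3 overlapped with both ages. The means were 1.80 ± 0.23 FPKM at P0 (SD, n = 6), 1.32 ± 0.40 at P3 (n = 6) and 0.808 ± 0.18 at P7 (n = 5). The difference between P7 and P0, as the mean of the differences within LV and RV, was -1.11 ± 0.21 (SE) on the scale of log2(FPKM + 0.1), with an adjusted p of 0.00101 (limma, Benjamini-Hochberg over 11079 rows). With the 0.1 added to each value, this is 0.464 times the P0 level. In ventricle tissue, a lower share of the cells that make a transcript and less of it per cell cannot be told apart.

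Snhg1-203 (NONMMUT033789), which keeps 1 intron that Snhg1-215 does not, stood at 0.726, 1.45 and 1.52 FPKM in LV P0, 0.998, 0.617 and 0.785 in LV P3 and 0.766, 0.487 and 0.573 in LV P7. Its RV values were 1.24, 0.881 and 0.868 FPKM at P0, 0.601, 0.340 and 0.793 at P3 and 0.353 and 0.433 at P7. LV P0 replicate 1 lay just below the highest P7 library, and the other 5 P0 libraries lay above all of P7. The difference between P7 and P0 was -1.0 ± 0.24 (SE, log2, limma adjusted p = 0.00649). The unmatched row at the Snhg1 position, NONMMUT033788, ranged from 0 to 1.11 FPKM over the 17 libraries, and its difference of -0.53 ± 0.54 (SE, log2) did not pass (limma adjusted p = 0.517). With an SE of this size, a difference such as the one estimated could not be told from no change.

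**Figure D2:**
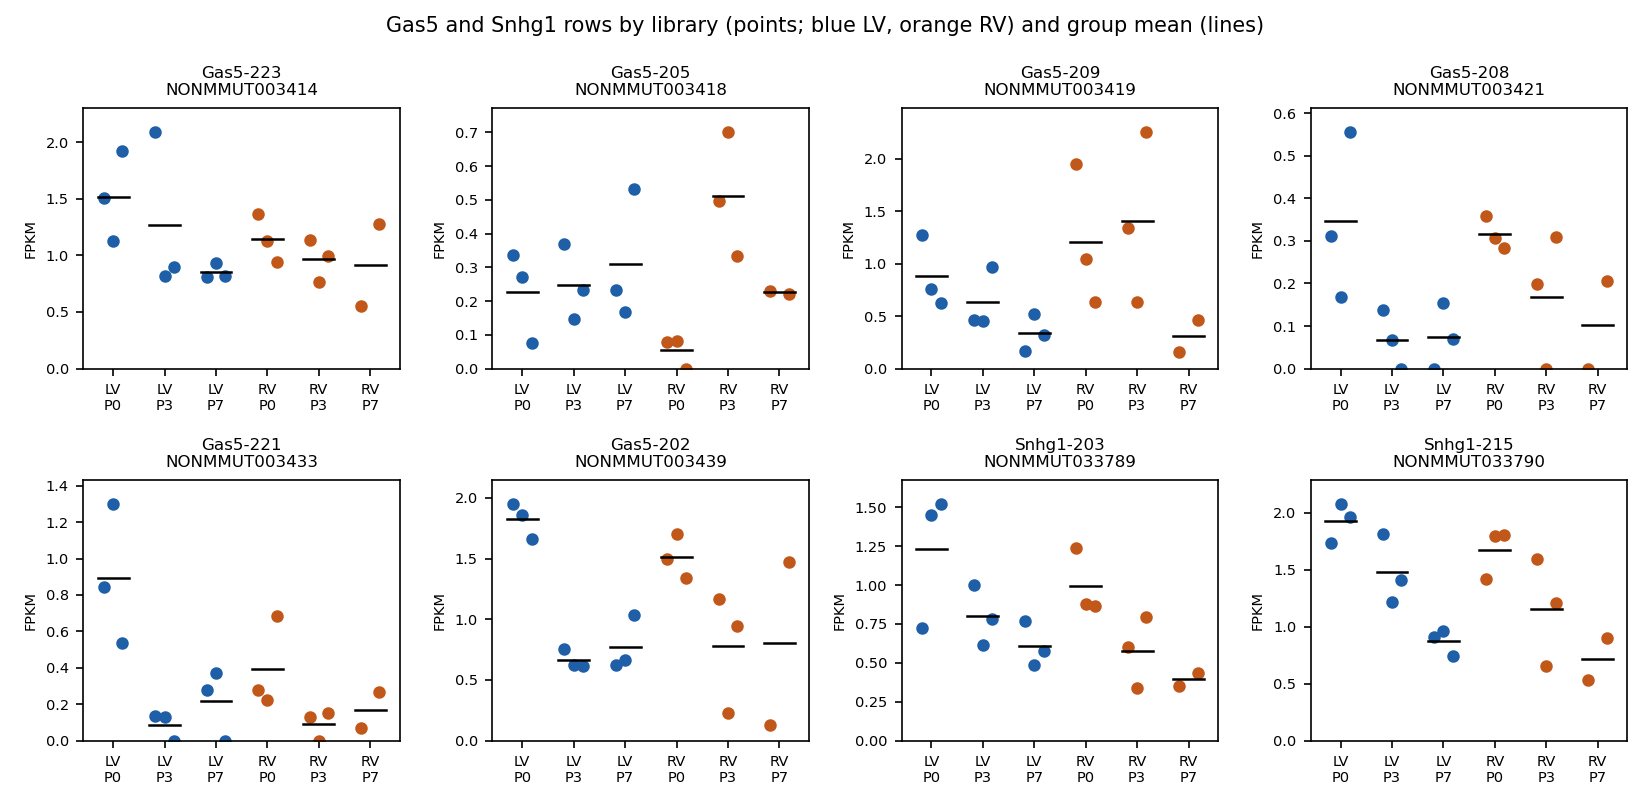
FPKM (vertical axes, each from 0) of the 8 rows described one by one, in every library, by ventricle and age, with group means as lines. Snhg1-215 at P7 lies between 0.527 and 0.960 FPKM and at P0 between 1.42 and 2.08 FPKM.

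Among Gas5 rows, 4 fell from P0 to P7, 0 rose and 12 of the 16 tested did not pass. Over both genes 6 of 19 tested rows fell, while 16.1% of all 11079 rows tested were called lower and 4.41% higher. The median difference was -0.61 (log2) over the 16 Gas5 rows, -1.0 over the 3 Snhg1 rows and -0.29 over all rows tested. The rows that fell were Gas5-202 and Gas5-221, which start in the 3′ part of the gene, Gas5-208, which keeps upstream introns, and Gas5-209, of the spliced lincRNA type.

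Gas5-202 (NONMMUT003439), a transcript of 2 exons with part of Snord47 in its own stretch, stood at 1.95, 1.86 and 1.66 FPKM in LV P0, 0.754, 0.622 and 0.615 in LV P3 and 0.619, 0.663 and 1.04 in LV P7. Its RV values were 1.5, 1.70 and 1.34 FPKM at P0, 1.17, 0.228 and 0.944 at P3 and 0.130 and 1.47 at P7. All 6 P3 libraries lay below all 6 P0 libraries, and RV P7 replicate 2 lay within the P0 range while the other 4 P7 libraries lay below it. The difference between P7 and P0 was -1.29 ± 0.39 (SE, log2, limma adjusted p = 0.0241). Without RV P7 replicate 1, the lowest library, it was -0.60 (limma adjusted p = 0.257), and without LV P7 replicate 1 the adjusted p was 0.0508 (limma).

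Gas5-209 (NONMMUT003419), the shortest Gas5 transcript matched at 346 bases and free of retained introns, stood at 1.27, 0.758 and 0.627 FPKM in LV P0, 0.462, 0.457 and 0.969 in LV P3 and 0.163, 0.522 and 0.318 in LV P7. Its RV values were 1.94, 1.04 and 0.637 FPKM at P0, 1.34, 0.629 and 2.26 at P3 and 0.160 and 0.464 at P7. All P7 libraries lay below all P0 libraries, on 1 to 13 fragments per library over the study. P3 reached above and below the P0 range. From P0 to P7 it differed by -1.43 ± 0.35 (SE, log2, limma adjusted p = 0.00789). When RV P7 replicate 1 was left out it was -1.15 (limma adjusted p = 0.0722).

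Gas5-221 (NONMMUT003433) stood at 0.846, 1.3 and 0.539 FPKM in LV P0, 0.132, 0.131 and 0 in LV P3 and 0.279, 0.373 and 0 in LV P7. In the RV it had 0.278, 0.223 and 0.684 FPKM at P0, 0.127, 0 and 0.149 at P3 and 0.0686 and 0.266 at P7. P3 lay below P0 in all libraries, and P7 overlapped with P0 in the RV values at 0.223 and 0.278. Between P7 and P0 the difference was -1.37 ± 0.43 (SE, log2, limma adjusted p = 0.0292).

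Gas5-208 (NONMMUT003421) keeps Gas5 introns upstream of the one that Gas5-223 keeps, as do other rows, among them Gas5-222 and Gas5-205. Gas5-208 stood at 0.313, 0.168 and 0.557 FPKM in LV P0, 0.137, 0.0677 and 0 in LV P3 and 0, 0.155 and 0.0705 in LV P7. The RV libraries had 0.360, 0.308 and 0.283 FPKM at P0, 0.198, 0 and 0.308 at P3 and 0 and 0.206 at P7. The lowest P0 library lay below the highest P7 library, and P0 and P7 overlapped there alone. P3 overlapped with both ages. The difference between P7 and P0 was -1.30 ± 0.40 (SE, log2, limma adjusted p = 0.0268). Gas5-221 and Gas5-208 drew at most 8.0 fragments in any library, and without RV P7 replicate 1 the adjusted p was 0.171 for Gas5-221 and 0.206 for Gas5-208 (limma). Gas5-221 missed the threshold also without LV P0 replicate 2, LV P7 replicate 3 or RV P0 replicate 3, and Gas5-208 without LV P0 replicate 3 or LV P7 replicate 1 (limma adjusted p from 0.0643 to 0.0717).

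The leading Gas5 row did not pass. Gas5-223 (NONMMUT003414), which carries Snord80 in the intron it keeps, stood at 1.51, 1.12 and 1.92 FPKM in LV P0, 2.09, 0.817 and 0.896 in LV P3 and 0.809, 0.932 and 0.820 in LV P7. Its RV values were 1.36, 1.13 and 0.945 FPKM at P0, 1.14, 0.763 and 0.996 at P3 and 0.551 and 1.27 at P7. In the LV all P7 libraries lay below all P0 libraries, and in the RV the ages overlapped. From P0 to P7 it differed by -0.56 ± 0.25 (SE, log2, limma adjusted p = 0.12). When RV P7 replicate 2 was left out it was -0.83 (limma adjusted p = 0.0383), and when RV P7 replicate 1 was left out it was -0.29 (limma adjusted p = 0.533). Gas5-222 (NONMMUT003424), with introns of several snoRNAs, ranged from 0.446 to 0.773 FPKM at P0, from 0.0899 to 1.25 at P3 and from 0.308 to 0.746 at P7. Its difference between P7 and P0 was -0.38 ± 0.33 (SE, log2, limma adjusted p = 0.451).

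Of the other tested Gas5 rows, Gas5-224, Gas5-225, Gas5-206, Gas5-207, Gas5-215, Gas5-211 and Gas5-220 had differences between P7 and P0 from -1.22 to -0.26 (log2), none of which passed. Gas5-203 and Gas5-219 had 0.35 and 0.06 and did not pass. The Gas5 row with the highest difference was Gas5-205 (NONMMUT003418), at 0.73 ± 0.32 (SE, log2, limma adjusted p = 0.113).

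**Figure D3:**
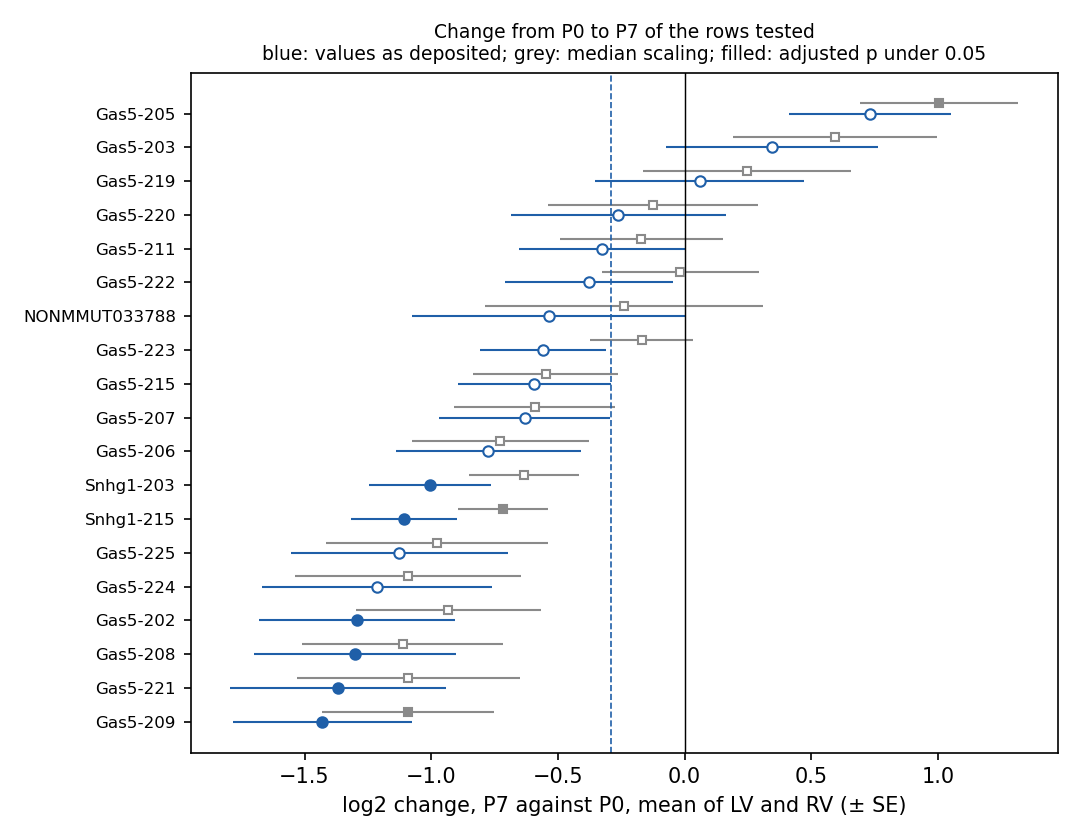
Difference between P7 and P0 on the scale of log2(FPKM + 0.1) (horizontal axis, ± SE) for the 19 rows tested, from the values as deposited (blue circles) and after median scaling (grey squares), filled where the limma adjusted p is under 0.05. The dashed line is the median of all rows tested, -0.29, and 16 of the 19 blue points lie below 0. Points of a gene depend on each other, and the share of all rows below 0 was not counted.

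The scaling of the libraries bears on these calls. Dividing each library by its median ratio to the row means moved the median of all rows tested from -0.29 to -0.06 (log2). The split of all calls went from 489 higher and 1782 lower to 855 higher and 677 lower. Under median scaling 2 member rows were called lower, where 6.11% of all rows were, and 1 higher, where 7.72% were. Snhg1-215 was lower at -0.72 ± 0.18 (SE, log2, limma adjusted p = 0.0104) and Gas5-209 at -1.09 ± 0.34 (limma adjusted p = 0.0388). Gas5-205 was higher at 1.0 ± 0.31 (limma adjusted p = 0.0379). Snhg1-203 was at -0.63 ± 0.22 (limma adjusted p = 0.0621). Under this scaling too, 16 of the 19 rows were below 0, where the median of all rows tested was -0.06. The share of all rows below 0 was not counted. Row values of a gene depend on each other, so the 19 signs are not separate observations. The part of library composition in the fall was not tested.

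Summed over its rows in the values as deposited, each gene fell from P0 to P7. The sums were not fitted after median scaling or with a library left out. Median scaling divides the P0 libraries by 1.04 to 1.23 and the P7 libraries by 0.726 to 0.922. It therefore brings the sums of these ages closer, and the separation given here is that of unscaled values. The 19 Gas5 rows together gave 8.57, 6.84 and 6.87 FPKM in LV P0, 6.81, 3.70 and 5.23 in LV P3 and 2.94, 4.54 and 4.25 in LV P7. In the RV they gave 7.83, 6.22 and 6.57 FPKM at P0, 6.40, 3.44 and 6.42 at P3 and 1.68 and 5.24 at P7. As deposited, all P7 sums of Gas5 lay below all its P0 sums. Fitted with the values of each position summed, Gas5 differed by -1.05 ± 0.24 between P7 and P0 (SE, log2, limma adjusted p = 0.00456).

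The 3 Snhg1 rows summed to 2.75, 4.21 and 3.81 FPKM in LV P0, 3.92, 2.38 and 2.32 in LV P3 and 1.67, 2.21 and 1.48 in LV P7. In the RV they summed to 3.07, 2.94 and 3.08 FPKM at P0, 2.65, 0.991 and 2.45 at P3 and 1.09 and 1.73 at P7. Again all P7 sums as deposited lay below all P0 sums. Snhg1 differed by -1.03 ± 0.23 between P7 and P0 (SE, log2, limma adjusted p = 0.00368). Of the 10188 positions tested, 17.2% were called lower. The group means of the Gas5 sum ran from LV P0 (7.43 ± 0.99, SD) through RV P0 (6.88 ± 0.85), RV P3 (5.42 ± 1.7), LV P3 (5.25 ± 1.6) and LV P7 (3.91 ± 0.85) to RV P7 (3.46 ± 2.5). Each neighbouring pair in that order differed by less than 1 SD of the more variable group. Those of the Snhg1 sum ran from LV P0 (3.59 ± 0.76) through RV P0 (3.03 ± 0.080), LV P3 (2.87 ± 0.91), RV P3 (2.03 ± 0.90) and LV P7 (1.79 ± 0.38) to RV P7 (1.41 ± 0.46), and the same held for each neighbouring pair.

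**Figure D4:**
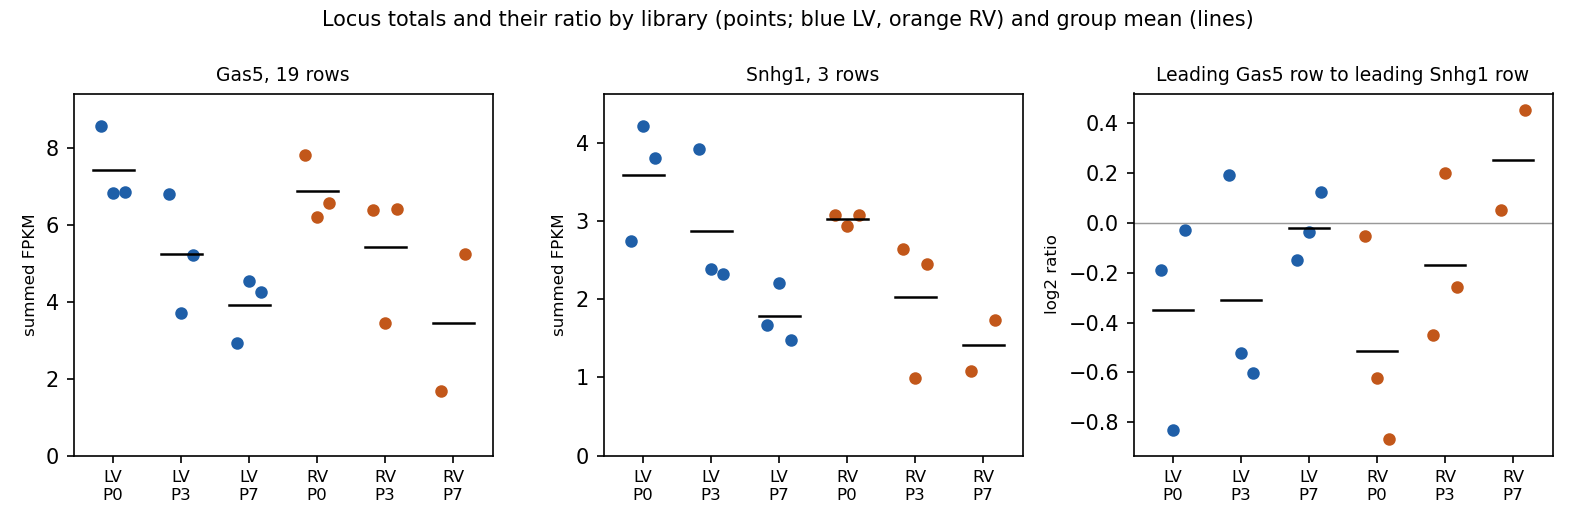
FPKM summed over the 19 Gas5 rows (left) and the 3 Snhg1 rows at the Snhg1 position (middle), and the log2 ratio of the leading Gas5 row to the leading Snhg1 row (right), by ventricle and age, with a point per library and group means as lines. Gas5 sums lie at 6.22 FPKM or above at P0 and at 5.24 or below at P7.

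By P3, 1 member row was lower than at P0 and 1 was higher, where 3.57% of all rows tested were called lower and 2.91% higher. Gas5-221 fell by 1.90 ± 0.40 (SE, log2, limma adjusted p = 0.00648). Gas5-205, which ends inside the gene and keeps an intron upstream of the introns of Gas5-202, stood at 0.337, 0.272 and 0.0751 FPKM in LV P0, 0.368, 0.146 and 0.232 in LV P3 and 0.233, 0.167 and 0.532 in LV P7. In the RV it had 0.0775, 0.0830 and 0 FPKM at P0, 0.497, 0.703 and 0.332 at P3 and 0.230 and 0.222 at P7. The RV P3 libraries lay above all RV P0 libraries, and the LV libraries of these ages overlapped. Gas5-205 rose from P0 to P3 by 1.07 ± 0.30 (SE, log2, limma adjusted p = 0.0382), on at most 7.0 fragments per library. That call was lost without any of 7 libraries: LV P0 replicate 3, LV P3 replicates 1 and 3, RV P0 replicates 1 and 3, and RV P3 replicates 1 and 2 (limma adjusted p from 0.0516 to 0.111). Snhg1-215 was at -0.47 ± 0.20 (limma adjusted p = 0.184), Snhg1-203 at -0.63 ± 0.23 (limma adjusted p = 0.115) and Gas5-202 at -1.21 ± 0.37 (limma adjusted p = 0.0543).

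Between P3 and P7, Gas5-209 fell by 1.29 ± 0.35 (SE, log2, limma adjusted p = 0.0424). The call was lost without any of 9 libraries: LV P0 replicate 2, LV P3 replicates 1 and 3, LV P7 replicates 1 and 3, RV P0 replicate 2, RV P3 replicates 1 and 3, and RV P7 replicate 1. No other member row was called, where 3.55% of all rows tested were called lower. Snhg1-215 was at -0.64 ± 0.21 (limma adjusted p = 0.0935) and Gas5-202 at -0.08 ± 0.39 (limma adjusted p = 0.926). The summed values differed between P7 and P3 by -0.59 ± 0.24 for Gas5 (limma adjusted p = 0.174) and -0.53 ± 0.23 for Snhg1 (limma adjusted p = 0.205). These comparisons share libraries with the P7 to P0 comparison.

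Within single ventricles, fewer rows passed. In the LV, Snhg1-215 fell from P0 to P7 by 1.06 ± 0.28 (SE, log2, limma adjusted p = 0.0185) and Gas5-221 fell by 1.85 ± 0.57 (limma adjusted p = 0.0421), 2 of 19 rows beside 8.64% of all rows tested. In the RV, Snhg1-215 fell by 1.15 ± 0.31 (limma adjusted p = 0.034), 1 of 19 rows beside 3.72% of all rows. The call of Snhg1-215 was lost in the LV without LV P0 replicate 2, LV P0 replicate 3 or LV P7 replicate 3. In the RV it was lost without any of the P0 libraries or RV P7 replicate 1. Gas5-221 lost its call in the LV without any LV library of these ages other than LV P7 replicate 2. Under median scaling no row was called within a single ventricle. Snhg1-203 was at -0.87 ± 0.32 in the LV (limma adjusted p = 0.0884) and -1.14 ± 0.36 in the RV (limma adjusted p = 0.073).

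No member row was called between the ventricles. For RV against LV over the ages, limma called 0 of the 19 rows, 1 of them had an unadjusted p under 0.05, and 0.00903% of all rows were called in either direction. Gas5-222 had the lowest p, with RV below LV by -0.65 ± 0.27 (SE, log2, limma adjusted p = 0.637). Snhg1-215 was at -0.29 ± 0.17 (limma adjusted p = 0.795) and Gas5-223 at -0.21 ± 0.20 (limma adjusted p = 0.909). The P7 to P0 difference did not pass a test of its own between the ventricles for any row. Here limma called 0 of 19 rows, 0 had an unadjusted p under 0.05, and 0.0% of all rows were called. For Snhg1-215 that difference between ventricles was -0.09 ± 0.42 and for Gas5-223 0.35 ± 0.50 (SE, log2). A p that misses the threshold does not show that the ventricles acted alike.

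The ratio of the leading rows rose from P0 to P7. Gas5-223 led Gas5 by a small margin, with a mean over all libraries of 1.12 FPKM against 1.07 for Gas5-202. Between P7 and P0 the difference was -1.29 (log2) for Gas5-202 and -1.11 for Snhg1-215. A rise of the ratio thus need not hold with Gas5-202, for which it was not tested. The log2 ratio of Gas5-223 to Snhg1-215, with 0.1 added to both, was -0.19, -0.83 and -0.03 in LV P0, -0.05, -0.62 and -0.87 in RV P0, -0.15, -0.04 and 0.12 in LV P7 and 0.05 and 0.45 in RV P7. The P7 values were in the upper part of the P0 range or above it. The mean went from -0.43 ± 0.39 (SD, n = 6) to 0.09 ± 0.23 (n = 5), a difference of 0.52 (two-sided exact permutation test over 462 arrangements, p = 0.026). The test takes LV and RV libraries as independent and exchanges them across ventricles. Whether they share animals is not known, and this p does not allow for it. With a pseudocount of 1 in place of 0.1 the difference was 0.32 (exact permutation test, p = 0.026). With the sums over all rows of each gene, the difference was -0.02 (exact permutation test, p = 0.926), so it held for these isoforms and was not detected for the summed FPKM. A sum of FPKM gives more weight to fragments of short rows. In fragments per M, the means went from 5.04 at P0 to 3.01 at P7 for Gas5 and from 7.79 to 3.64 for Snhg1. The ratio of these was not tested. For the leading rows, the difference within the LV alone was 0.33 (exact permutation test, p = 0.3). Within the RV alone it was 0.77 (exact permutation test, p = 0.2). The smallest p these groups allow is 0.1 in the LV and 0.2 in the RV.

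Across the 17 libraries, log2(FPKM + 0.1) of Gas5-223 and Snhg1-215 had a Pearson correlation of 0.72 and a Spearman correlation of 0.71. The pair Snhg1-203 and Snhg1-215 had a Pearson correlation of 0.83, and Gas5-223 and Gas5-202 had 0.67. Libraries of one age and depth are shared by these points, and the values are descriptions. Among 5527 rows outside the windows with a mean above the median of the rows tested, the 5 most like Snhg1-215 had correlations of 0.92 to 0.95. The first of them, at chr18:67604100-67608763, had a mean of 0.331 FPKM at P0 and 0.127 at P7. All 5 of these rows, chosen for a pattern in which P7 is low, were called lower at P7 than at P0. The 5 most like Gas5-223 had correlations of 0.87 to 0.90, led by a row at chr2:90692348-90697021 with 0.370 FPKM at P0 and 0.208 at P7. The files do not pair these rows with gene names.

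Of 19 other snoRNA host genes listed, 3 had rows that could be placed by an exact match of the span: Snhg12, Snhg20 and Dancr. Their row with the highest mean stands for each. None of these 3 rows matched an annotated transcript of its gene by length, so which isoforms they are is not known. A further Snhg12 row, NONMMUT049837, did match, as Snhg12-203, but had a lower mean, 0.528 FPKM against 1.11. The ID of the Snhg20 row, NONMMUT012882, also occurs on a further row at the same position, with a mean of 0.111 FPKM. The levels and tests below are those of the row with the highest mean. Snhg20 stood at 6.51 ± 1.08 FPKM at P0 (SD, n = 6), 6.08 ± 2.05 at P3 (n = 6) and 4.78 ± 1.90 at P7 (n = 5), with P7 values from 2.12 to 7.40 that overlapped with the P0 range of 4.96 to 7.79. It fell from P0 to P7 by 0.62 ± 0.20 (SE, log2, limma adjusted p = 0.039). Snhg12 stood at 1.78 ± 0.554 FPKM at P0, 0.661 ± 0.361 at P3 and 0.858 ± 0.480 at P7. It fell from P0 to P3 by 1.42 ± 0.37 (limma adjusted p = 0.0236), and from P0 to P7 the difference was -0.99 ± 0.39 (limma adjusted p = 0.0775). Dancr was above 0 in 2 of 17 libraries and did not pass the filter. By these rows, 1 of the 2 host genes tested was called lower at P7 than at P0, where 16.1% of all rows tested were. The number called higher was 0, where 4.41% of all rows were.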

How the data were processed

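RNA of mouse ventricles was sequenced in 17 libraries, and for each of them the authors deposited a table of feature IDs, positions and values. The deposited values were read as FPKM, an inference from the regular steps of low values, which also gave the depth and the row lengths used to match isoforms. Per the submitters' processing notes, STAR 2.4.0j and mm10 were used. Not given in the sources used here are the counting tool, the annotation and the normalization. Positions run past the ends of mm10 chromosomes and were taken as mm9, and none was converted. Lengths, exons and sequences came by name from GENCODE M21 and RefSeq.

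Rows that reached 0.1 FPKM in 2 or more libraries were tested with limma 3.58.1 (R 4.3.3). The model took log2(FPKM + 0.1), group means, a variance trend and robust moderation. P-values were two-sided and adjusted by Benjamini-Hochberg over all rows tested, with a threshold of 0.05, and the fit was tested on simulated data. Fold differences of low rows are understated on this scale. The ratio was tested by exact permutation in scipy 1.17.1. Isoforms were accepted where the values lay within 0.02 of a step of 0.5 fragment.

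Rows were described in full if their mean was at least 1 FPKM or if any comparison called them. Other host genes were matched by span. Matches for Snhg17 and for a further Snhg20 position were dropped after their values were seen, because fewer than 3 rows nearby shared their offset to the annotation. Members, lists and tests were chosen with earlier results of these data known. Alternatives were median scaling, pseudocounts of 0.01 and 1, no filter, no variance trend, only the groups compared, a replicate block, values summed per position and each library left out.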

Additional observations from a re-analysis of the deposited data

How the results depend on the processing

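For P7 against P0, the count of 6 called rows, all lower, became 3 under median scaling (2 lower, 1 higher), 3 with no filter and 2 positions with values summed per position, and leaving out a library gave 2 to 8, with 2 without RV P7 replicate 1. Calls lower over all rows tested went from 1782 of 11079 to 1130 of 23940 with no filter. Without RV P7 replicate 1 they were 867 of 11031. For P3 against P0, the 2 called rows became 0 at a pseudocount of 0.01, 1 with no filter, 0 positions when summed, and 1 to 3 without a library. RV P3 replicate 2, LV P3 replicates 1 and 3, LV P0 replicate 3 and RV P0 replicates 1 and 3 each left 1. Among all rows tested, 322 were called higher and 396 lower in the main fit, and 300 and 284 at a pseudocount of 0.01. With no filter, 213 and 205 of 23940 were. For P7 against P3, the 1 called row became 0 under median scaling, a pseudocount of 1, no filter, no variance trend, only the groups compared, the replicate block and summing, and 0 to 2 without a library. Over all rows tested, calls lower were 393 in the main fit, 132 under median scaling and 291 at a pseudocount of 1. They were 171 of 23940 with no filter, 255 with no variance trend, 286 with only the groups compared and 362 with the replicate block. For LV P7 against P0, the 2 became 0 under median scaling and no filter, 1 at a pseudocount of 0.01 and when summed, and 0 to 3 without a library. For all rows tested, calls lower were 957 in the main fit and 388 under median scaling. They were 867 at a pseudocount of 0.01 and 534 of 23940 with no filter. For RV P7 against P0, the 1 became 0 under median scaling, no filter, no variance trend, only the groups compared, the replicate block and summing, and 0 to 2 without a library. Calls lower among all rows were 412 in the main fit, 191 under median scaling and 221 of 23940 with no filter. They were 306 with no variance trend, 174 with only the groups compared and 343 with the replicate block. No alternative called a row between ventricles or in the difference between ventricles, for which the count stayed 0. Snhg1-215 kept its call for P7 against P0 under all 24 alternatives, with log2 differences from -1.28 to -0.65. The other 7 rows shown with all their values kept their direction in that comparison. The log2 ratio of the leading rows reversed to -0.0213 (exact permutation p = 0.926) with summed rows. It was 0.33 in the LV and 0.77 in the RV, and 0.43 to 0.60 without a library, with p above 0.05 without LV P7 replicate 3 or RV P7 replicate 2. The causes were not tested, except that summing and fewer libraries change what is fitted. With the replicate block, 6 rows were called for P7 against P0, as without it, 2 for P3 against P0 and 2 for the LV. For comparisons of ages this block was the replicate number, shared by all ages. Neither it nor the fit without a block allows for animals shared by LV and RV at one age. LV and RV libraries of one number and age had correlated deviations of 0.05 to 0.17 in 8 pairs, over 0.1 in 3, and all 8 RV libraries correlated best with the LV library of their own number. This is a hint from the data and no pairing by design. Depth limits all rows: Gas5 as a whole rests on 27.0 to 120 fragments per library.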

Other observations

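The share of Gas5 fragments in rows that start past the midpoint of the gene differed between ages. This split was chosen after the values were seen and was not tested. The 5 such rows, Gas5-202, Gas5-206, Gas5-215, Gas5-221 and Gas5-225, held 24.0% to 36.2% of Gas5 fragments in the 6 P0 libraries, with a mean of 30.4%. They held 9.09% to 17.9% in the 6 P3 libraries and 7.41% to 29.0% in the 5 P7 libraries. P0 and P3 did not overlap, and of the P7 libraries only RV P7 replicate 2 lay in the P0 range. Per M fragments, these rows had 1.52 ± 0.26 at P0 (SD, n = 6), 0.576 ± 0.20 at P3 (n = 6) and 0.607 ± 0.36 at P7 (n = 5). Rows starting before the midpoint had 3.52 ± 0.58, 3.57 ± 1.1 and 2.4 ± 0.68. Rows starting past the midpoint had a lower mean at P3 than at P0, while the mean of the others was lower at P7.

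The 4 Gas5 rows of lincRNA type, which are the spliced transcripts without retained introns, had 0.619 ± 0.22 fragments per M at P0 (SD, n = 6), 0.603 ± 0.22 at P3 (n = 6) and 0.314 ± 0.16 at P7 (n = 5). The ranges overlapped between P0, at 0.380 to 0.953, and P7, at 0.111 to 0.440. Of these rows Gas5-203, with a start upstream of the others, had a mean of 0.197 FPKM at P0 and 0.270 at P7, and Gas5-209 had 1.05 and 0.325. Rows of retained-intron type were assigned more fragments than the lincRNA rows in all 17 libraries, with a lincRNA share of at most 24.2% of Gas5 fragments. These shares count whole rows, and rows of retained-intron type also contain spliced exons shared with other rows. They depend on how shared fragments were divided, which is not known, and are not scaled to row length. Whether retained introns outweighed spliced RNA was not tested.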
